A study of Homo sapiens with 6 samples.

Results

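The genes described here are 34 carriers that move amino acids across membranes, taken by symbol from the solute carrier families SLC1, SLC3, SLC6, SLC7, SLC36, SLC38 and SLC43. All 34 were found among the 60612 Ensembl gene identifiers of the count files, and 30 had enough reads to be tested. The RNA sequencing data come from SKBR3, an established HER2-positive breast cancer line of mammary epithelial origin. There were 3 libraries of untreated cells, called parental here, and 3 of cells kept under rising concentrations of trastuzumab for 30 weeks, called trastuzumab here. Trastuzumab is a therapeutic antibody against HER2, the receptor encoded by ERBB2, and the study asked how expression changes as resistance to it forms. The same line underlies both groups, no clone is named, and the labels do not say whether the drug was present at harvest or whether the replicates were separate cultures. The p-values therefore reflect no more than the scatter among these 6 libraries, which may be technical.

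Amino acid carriers of the cell surface work as an interlocking set. Sodium-coupled loaders such as SLC38A1 and SLC38A2 bring in glutamine and other small neutral amino acids, and exchangers such as SLC1A5 and the SLC7A5 complex then trade these for other amino acids that the cell lacks. SLC7A5 and several relatives are light chains that reach the surface only when bound to the heavy chain SLC3A2, and another light chain, SLC7A11, takes up cystine for glutathione synthesis. Carriers on the lysosome, among them SLC38A9, pass amino acids out of it and take part in signalling to the growth kinase mTORC1.

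Depth was similar in all libraries, with 71.8 to 72.4 M counts in the parental and 71.0 to 82.9 M in the trastuzumab libraries, and 3 counts correspond to 0.0372 to 0.0428 CPM (counts per M of the TMM-scaled library total). ERBB2 stood at 7559 to 8144 CPM in the parental group and 10860 to 11328 CPM in the trastuzumab group, and of the 6 markers of HER2-positive mammary epithelium all but CDH1 were abundant (CDH1, which SKBR3 is known to have lost, reached at most 0.261 CPM). The 5 myoepithelial markers summed to 3.84 to 5.20 CPM in the parental group and 3.42 to 21.2 CPM in the trastuzumab group: KRT5 was at 0.614, 9.07 and 8.26 CPM and KRT14 at 0.0571, 7.53 and 7.72 CPM in trastuzumab replicates 1, 2 and 3. Of the other myoepithelial markers, ACTA2 was higher, at 0.391 CPM in the parental and 1.79 CPM in the trastuzumab mean. TP63 was lower in the mean (1.19 and 0.442 CPM, edgeR adjusted p = 0.0208), but the groups overlapped. With the correction for GC content described below, its edgeR adjusted p was 0.104. MYH11 (2.03 and 1.59 CPM) was not significantly different (edgeR adjusted p = 0.256). Because KRT5 and KRT14 differed among the trastuzumab replicates, results were also computed without trastuzumab replicates 2 and 3. The 6 leukocyte markers summed to 14.5 to 17.2 and 42.7 to 49.0 CPM, almost all of it CD68, with the defining leukocyte gene PTPRC at no more than 0.31 CPM. The 4 endothelial markers summed to 28.5 to 31.7 and 78.9 to 86.0 CPM, almost all of it CDH5, with PECAM1 at no more than 0.224 CPM, and the 6 fibroblast markers to 9.19 to 19.2 and 6.06 to 10.9 CPM. The part of these marker changes in the results below was not tested.

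Trastuzumab cells held more RNA of the exchanger SLC1A5 and of the heavy chain SLC3A2, and less of the loaders SLC38A1 and SLC38A2, of the cystine carrier SLC7A11, of the glutamate carrier SLC1A1 and of the neutral carrier SLC6A15. SLC6A14, a carrier with a very broad substrate range, was scarce in parental cells and 6.39-fold higher under trastuzumab. SLC1A1 was also scarce in parental cells and had enough reads to be tested through that group. Of the 30 tested members, 7 rose and 9 fell (edgeR quasi-likelihood test, Benjamini-Hochberg adjusted p below 0.05 over all 17854 tested genes), and 14 did not pass. That is 53.3% of the tested members, against 49.3% of all tested genes (23.9% higher and 25.4% lower), so the share of members called was close to the background. The median log2 fold change (trastuzumab minus parental) was -0.14 over the members and -0.01 over all tested genes. Parental and trastuzumab libraries did not overlap in CPM for 19 of the 30 members and for 57.5% of all tested genes.

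Fold changes across the genome followed transcript GC content, so a second fit removed from each library a smooth trend on GC content and length. It called 38.8% of all genes and again 7 members higher and 9 lower, but these were partly different genes. Of the members, 5 were called higher and 5 lower in both fits. SLC38A7, SLC1A2, SLC1A4, SLC7A6 and SLC36A4 lost their call, SLC6A6 and SLC38A9 became higher, SLC7A8, SLC7A1 and SLC6A9 became lower, and SLC7A5 changed from higher to lower. Values from this fit are called corrected below. Where GC content goes with the treatment, the correction also removes real changes that follow it.

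**Figure D1:**
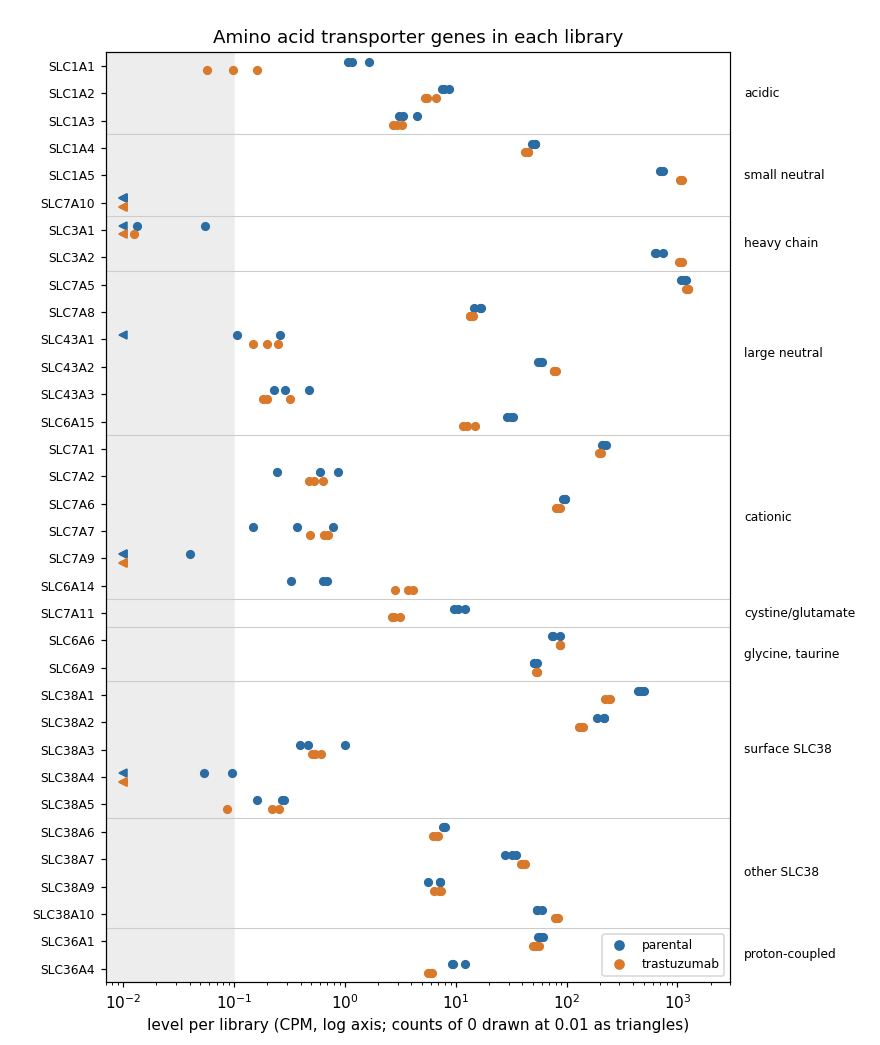
TMM-scaled CPM (log axis) of the 34 amino acid transporter genes in the 3 parental and 3 trastuzumab libraries, grouped by substrate class, with each point 1 library and the shaded band below 0.1 CPM. SLC1A5, SLC3A2 and SLC6A14 lay higher in the trastuzumab libraries, SLC1A1, SLC7A11, SLC38A1 and SLC38A2 lay lower, and 4 genes stayed inside the band in every library.

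Promoter sequence from RefSeq (GRCh38.p14) shows the stretch just upstream of a start site for genes at the centre of these results: the most abundant light chain, the exchanger that rose, the scarce carrier with the largest rise and SLC38A1, the loader with the larger fall. These 250-base upstream windows, 47 in all, existed for 26 of the 34 members. They were searched on both strands for 3 motifs bound by factors known for amino acid and redox control. SLC7A11, SLC6A15, SLC6A6, SLC1A2, SLC7A2, SLC38A3, SLC43A3 and SLC3A1 had no window and were not searched. The 150 bases before the start are printed 5′ to 3′ on the gene's strand in lower case, with a motif match in capitals. Which start site the reads came from is not known here.
SLC7A5 (chr16:87869508-87869657, minus strand): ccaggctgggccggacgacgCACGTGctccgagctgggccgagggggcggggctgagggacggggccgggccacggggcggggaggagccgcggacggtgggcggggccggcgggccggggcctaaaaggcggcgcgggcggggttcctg
SLC1A5 (chr19:46788595-46788744, minus strand): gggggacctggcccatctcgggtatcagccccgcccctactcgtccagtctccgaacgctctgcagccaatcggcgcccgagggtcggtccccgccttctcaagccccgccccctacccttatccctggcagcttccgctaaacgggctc
SLC6A14 (chrX:116436456-116436605, plus strand): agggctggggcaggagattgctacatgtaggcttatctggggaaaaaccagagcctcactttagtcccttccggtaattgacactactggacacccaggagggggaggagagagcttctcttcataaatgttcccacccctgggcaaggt
SLC38A1 (chr12:46267988-46268137, minus strand): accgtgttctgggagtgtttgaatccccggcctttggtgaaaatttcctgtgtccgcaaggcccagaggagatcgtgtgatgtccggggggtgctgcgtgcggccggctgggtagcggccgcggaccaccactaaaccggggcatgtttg
SLC3A2, around its motif match (chr11:62881652-62881681, plus strand): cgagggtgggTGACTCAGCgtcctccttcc

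The capitals in SLC7A5 mark an E-box, CACGTG, the site letters of MYC and related factors, which 7 of the 47 member windows and 6.34% of all 35116 upstream windows held. Those in SLC3A2 mark the letters TGACNNNGC of the antioxidant response element bound by NRF2, which 6 of the 47 member windows and 10.9% of all windows held. The windows before the other annotated starts of SLC3A2, at positions 62856109 and 62880896, held none of the 3 motifs. The letters TGATGNAA of the composite site bound by ATF4 with C/EBP proteins were in 3.14% of all windows and in 2 of the 47, those of SLC1A3 and SLC1A5, in the latter before another annotated start than the one printed. The printed stretches of SLC1A5, SLC6A14 and SLC38A1 held none of the 3 motifs. Yet another SLC1A5 window, before a start at position 46787293, held both an E-box and the NRF2 letters. GC content was 82.7% in the SLC7A5 stretch, 68.7% in that of SLC1A5, 62.0% in that of SLC38A1 and 53.3% in that of SLC6A14. Before the other annotated start of SLC38A1, not printed, it was 42.0%. A match describes letters, not binding, and the members with a match included genes that rose, fell and were not called.

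SLC1A5 (ENSG00000105281, chr19:46774883-46788594 on hg38), also called ASCT2, exchanges glutamine, alanine, serine and cysteine. Its level was 694, 709 and 740.4 CPM in parental replicates 1 to 3 and 1061, 1095 and 1081 CPM in trastuzumab replicates 1 to 3. Every trastuzumab library lay above every parental library. In bulk RNA, a change in the share of cells of a kind and a change in RNA per cell cannot be told apart, here and below. The mean rose 1.51-fold, from 714 ± 23.5 to 1079 ± 17.3 CPM (SD, n = 3), a log2 fold change of 0.59 ± 0.04 (SE, edgeR adjusted p = 6.51e-09). The corrected log2 fold change was 0.22 (edgeR adjusted p = 1.65e-05), and without trastuzumab replicates 2 and 3 it was 0.57. Exons of SLC1A5 overlap those of an antisense RNA on the opposite strand, and reads of the overlap cannot be told apart because the strand setting of the counting is not given in the sources used here.

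SLC1A4, or ASCT1, the close relative of SLC1A5 that prefers alanine, serine and cysteine, went the other way by a small amount. It was at 51.7, 49.3 and 52.1 CPM in parental and 45.1, 44.6 and 42.6 CPM in trastuzumab libraries, with no overlap. The mean fell from 51.0 ± 1.52 to 44.1 ± 1.30 CPM, a log2 fold change of -0.21 ± 0.062 (edgeR adjusted p = 0.0093). The call was lost after correction, at -0.03 (edgeR adjusted p = 0.771), and without trastuzumab replicates 2 and 3, at -0.18 (edgeR adjusted p = 0.203). The third small neutral exchanger, SLC7A10, had no count in any library. On the FPKM scale, which accounts for gene length, SLC1A5 was at 193 ± 4.42 and SLC1A4 at 6.62 in parental cells, and at 278 ± 3.83 and 5.46 under trastuzumab.

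SLC3A2 (ENSG00000168003, chr11:62856102-62888875), the 4F2 heavy chain or CD98, holds several light chains at the membrane. Its level was 633, 642 and 737 CPM in parental and 1027, 1088 and 1065 CPM in trastuzumab libraries. The groups were far apart, and parental replicate 3 was the highest of its group. The mean rose 1.58-fold, from 671 ± 57.5 to 1060.0 ± 30.7 CPM, a log2 fold change of 0.66 ± 0.054 (edgeR adjusted p = 6.81e-08). The corrected log2 fold change was 0.38 (edgeR adjusted p = 1.77e-06). The other heavy chain, SLC3A1, which pairs with SLC7A9 in kidney and gut, had between 0 and 4 counts per library.

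SLC7A5, or LAT1 (ENSG00000103257, chr16:87830023-87869488), is the main partner of SLC3A2 in many tumours and brings in leucine and other large neutral amino acids in exchange for glutamine. It was the most abundant member in parental cells per length, at 214 ± 9.99 FPKM, followed by SLC1A5 at 193 and SLC3A2 at 117 FPKM. Its level was 1085, 1185 and 1124 CPM in parental and 1186, 1257 and 1246 CPM in trastuzumab libraries, where parental replicate 2 almost reached trastuzumab replicate 1. The mean rose 1.09-fold, a log2 fold change of 0.12 ± 0.043 (edgeR adjusted p = 0.0292). The call was lost on library totals alone (0.07, edgeR adjusted p = 0.211), on log2(FPKM + 1) (0.05, limma adjusted p = 0.307), without trastuzumab replicates 2 and 3 (0.07, edgeR adjusted p = 0.55) and without parental replicate 1 (0.09, edgeR adjusted p = 0.127). It was also lost without trastuzumab replicate 2 (0.11, edgeR adjusted p = 0.107) or without trastuzumab replicate 3 (0.11, edgeR adjusted p = 0.117). The corrected value was -0.22 (edgeR adjusted p = 5.36e-05), in the opposite direction.

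The heavy chain thus changed by more than the sum of its light chains. SLC7A5, SLC7A6, SLC7A7, SLC7A8, SLC7A10 and SLC7A11 together were at 221, 241 and 225 FPKM in parental and 226, 238 and 236 FPKM in trastuzumab libraries, and the groups overlapped. The ratio of SLC3A2 to this sum was 0.504, 0.469 and 0.566 in parental and 0.758, 0.761 and 0.751 in trastuzumab libraries, without overlap. SLC7A5 made up 93.5% of the light chain sum in the parental mean and 95.0% in the trastuzumab mean. Among the other light chains, SLC7A6 went from 4.95% to 4.03% of the sum, SLC7A8 from 1.05% to 0.844% and SLC7A11 from 0.444% to 0.11%. These are RNA levels per length and say nothing of protein or of complexes at the membrane.

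Of the 6 large neutral carriers, 2 rose, 1 fell and 3 did not pass, a share of 50.0% called, near the 49.3% of all genes. After correction 1 was higher and 3 were lower. Besides SLC7A5, the riser was SLC43A2, or LAT4, which lets branched-chain amino acids and phenylalanine pass without exchange. It was at 55.0, 59.6 and 58.7 CPM in parental and 76.3, 80.3 and 77.5 CPM in trastuzumab libraries, all higher, with a log2 fold change of 0.43 ± 0.055 (edgeR adjusted p = 5.71e-06) and a corrected value of 0.29 (edgeR adjusted p = 5.36e-05). SLC7A8, or LAT2, a light chain with a wider neutral range than SLC7A5, averaged 16.0 ± 1.28 CPM in the parental group and 13.8 ± 0.65 CPM in the trastuzumab group (log2 fold change -0.22, edgeR adjusted p = 0.0747). It passed without parental replicate 1 (-0.28, edgeR adjusted p = 0.0352) and after correction (-0.36, edgeR adjusted p = 0.0042). SLC43A1, or LAT3, had 8, 0 and 19 counts in parental and 14, 12 and 20 in trastuzumab libraries, and SLC43A3, a purine base carrier grouped with this family, was at 0.331 and 0.236 CPM in the group means. At this depth no difference was detectable in these scarce genes.

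SLC6A15, or B0AT2, a sodium-coupled carrier of branched-chain amino acids and proline best known from brain, fell 2.38-fold. It was at 32.9, 31.6 and 28.8 CPM in parental and 15.0, 11.6 and 12.6 CPM in trastuzumab libraries. The groups were clearly separate, at 31.1 ± 2.06 against 13.1 ± 1.77 CPM. The log2 fold change was -1.25 ± 0.099 (edgeR adjusted p = 3.31e-08), the corrected value -0.71 (edgeR adjusted p = 2.75e-06) and the value without trastuzumab replicates 2 and 3 was -1.05.

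SLC38A1, or SNAT1 (ENSG00000111371, chr12:46183063-46270017), a sodium-coupled loader of glutamine and alanine, fell to about the same degree in each trastuzumab library. It was at 499, 470 and 438 CPM in parental and 244, 224 and 241 CPM in trastuzumab libraries. The mean fell 1.98-fold, from 469 ± 31.0 to 236 ± 10.7 CPM, a log2 fold change of -0.99 ± 0.052 (edgeR adjusted p = 4.19e-10), which was the lowest p among the members. The corrected value was -0.52 (edgeR adjusted p = 4.33e-09).

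SLC38A2, or SNAT2 (ENSG00000134294, chr12:46358189-46372867), its neighbour 88 kb away on chromosome 12, is the loader known for its induction when amino acids run short. It was at 216, 218 and 187 CPM in parental and 139, 130.4 and 142 CPM in trastuzumab libraries. The groups did not overlap, and parental replicate 3 was the lowest of its group. The mean fell 1.51-fold, from 207 ± 17.2 to 137 ± 6.16 CPM, a log2 fold change of -0.59 ± 0.059 (edgeR adjusted p = 4.51e-07), with a corrected value of -0.12 (edgeR adjusted p = 0.032). The next gene of the family on that chromosome, SLC38A4, 392 kb from SLC38A2, had 0, 4 and 7 counts in parental libraries and none in trastuzumab libraries.

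Of the other loaders of the surface, SLC38A3, or SNAT3, a glutamine carrier of liver, kidney and brain, was at 0.621 and 0.554 CPM in the group means, and SLC38A5, or SNAT5, at 0.241 and 0.189 CPM. Neither passed the test. Summed over this class, loaders went from 75.5, 73.1 and 64.7 FPKM in parental to 39.6, 36.5 and 39.6 FPKM in trastuzumab libraries, 0.542 of the parental mean. The FPKM of SLC1A5 was 2.51, 2.65 and 3.07 times that of SLC38A1 plus SLC38A2 in parental libraries and 6.96, 7.75 and 7.06 times in trastuzumab libraries. The separation of the groups in this ratio follows from the changes of these genes given above and is no further result. FPKM carry no correction for GC content. The corrected log2 fold changes were smaller, at 0.22 for SLC1A5, -0.52 for SLC38A1 and -0.12 for SLC38A2.

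SLC7A11, or xCT (ENSG00000151012, chr4:138164097-138242349), exports glutamate for cystine, the precursor of glutathione. It was at 12.2, 10.6 and 9.6 CPM in parental and 3.17, 2.69 and 2.80 CPM in trastuzumab libraries. Each trastuzumab library lay well below the lowest parental library. The mean fell 3.75-fold, from 10.8 ± 1.34 to 2.89 ± 0.25 CPM, a log2 fold change of -1.91 ± 0.15 (edgeR adjusted p = 2.53e-08), and the corrected value was -1.27 (edgeR adjusted p = 9.85e-07). The gene was already sparse in parental cells at 1.01 ± 0.131 FPKM. An antisense RNA, SLC7A11-AS1, shares exonic bases with it on the opposite strand.

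The 3 carriers of glutamate and aspartate were all low, at a summed 1.13 ± 0.0608 FPKM in parental and 0.647 ± 0.0208 FPKM in trastuzumab libraries. SLC1A1, or EAAT3, the glutamate and cysteine carrier of epithelia and neurons (ENSG00000106688, chr9:4490444-4587469), had 86, 123 and 78 counts in parental and 4, 8 and 13 counts in trastuzumab libraries. It came close to the floor of 3 counts in trastuzumab replicate 1. The fall was 12-fold, a log2 fold change of -3.58 ± 0.48 (edgeR adjusted p = 1.01e-05), with a corrected value of -3.41 (edgeR adjusted p = 2.99e-05) and a value of -4.47 without trastuzumab replicates 2 and 3. On log2(FPKM + 1), a scale that compresses low genes, it was -0.34.

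SLC1A2, or EAAT2, the main glutamate carrier of astrocytes, was at 7.94, 8.72 and 7.53 CPM in parental and 6.63, 5.33 and 5.50 CPM in trastuzumab libraries, without overlap. Its log2 fold change was -0.47 ± 0.14 (edgeR adjusted p = 0.00969). That call ended after correction (0.09, edgeR adjusted p = 0.633) and without trastuzumab replicates 2 and 3 (-0.28, edgeR adjusted p = 0.343). SLC1A3, or EAAT1, its glial relative, was at 3.66 ± 0.732 and 2.99 ± 0.274 CPM and did not pass (log2 fold change -0.29, edgeR adjusted p = 0.246).

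**Figure D2:**
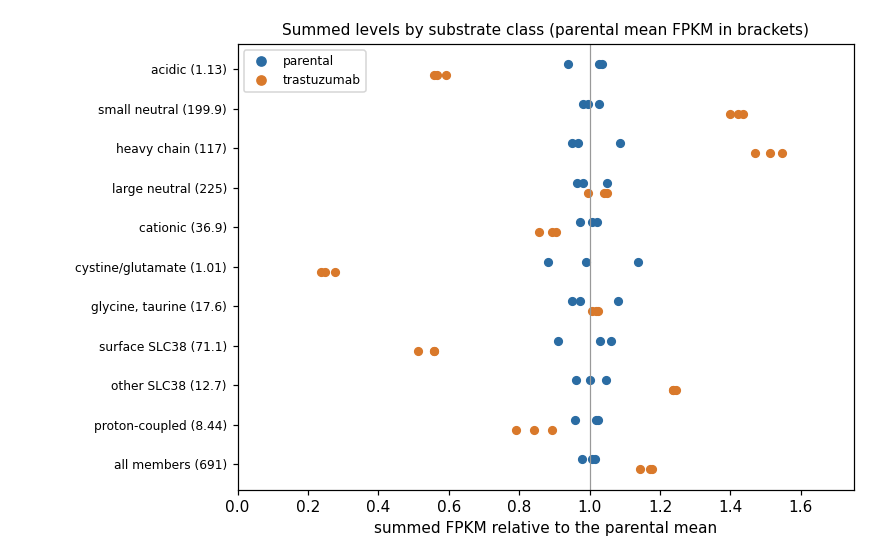
Summed FPKM of each substrate class in each library, divided by the parental mean of that class (in brackets, in FPKM), with each point 1 library. The surface SLC38 loaders, the acidic carriers and the cystine exchanger lay well below 1 in all 3 trastuzumab libraries, the small neutral exchangers and the heavy chains lay above, and the large neutral class overlapped.

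Among the cationic carriers, 1 rose, 1 fell, 3 did not pass and 1 was untested, so 40.0% of those tested were called, against 49.3% of all genes. SLC6A14, or ATB0,+ (ENSG00000268104, chrX:116436622-116461458), which uses sodium and chloride to bring in neutral and cationic amino acids, had 51, 47 and 24 counts in parental and 259, 229 and 328 counts in trastuzumab libraries. In CPM these were 0.69, 0.638 and 0.33 against 3.70, 2.84 and 4.09. Every trastuzumab library was several times above every parental library. The log2 fold change was 2.68 ± 0.30 (edgeR adjusted p = 1.3e-06), the corrected value 3.11 (edgeR adjusted p = 3.71e-07) and the value without trastuzumab replicates 2 and 3 was 2.74. Even so the gene stayed scarce, at 0.667 FPKM in the trastuzumab mean. On log2(FPKM + 1) the difference was 0.58.

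SLC7A1, or CAT1, the general arginine and lysine carrier, was the most abundant cationic carrier, at 25.3 FPKM in parental and 22.4 FPKM in trastuzumab libraries. It was at 209, 214 and 225 CPM in parental and 202, 195 and 204 CPM in trastuzumab libraries. The groups did not overlap but the log2 fold change of -0.11 ± 0.046 missed the threshold (edgeR adjusted p = 0.0605). It passed as lower after correction (-0.18, edgeR adjusted p = 0.000685), on library totals alone (-0.16, edgeR adjusted p = 0.00519) and without parental replicate 1 (-0.13, edgeR adjusted p = 0.0384).

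SLC7A6, or y+LAT2, a light chain of SLC3A2 that exports arginine for glutamine, was at 92.3, 96.4 and 97.6 CPM in parental and 86.6, 81.0 and 81.7 CPM in trastuzumab libraries. It fell by a log2 fold change of -0.20 ± 0.051 (edgeR adjusted p = 0.00345). The call was lost after correction (-0.02, edgeR adjusted p = 0.812) and without trastuzumab replicates 2 and 3 (-0.14, edgeR adjusted p = 0.248). Its exons overlap those of SLC7A6OS on the opposite strand. SLC7A7, the relative used in gut and kidney, was at 0.436 and 0.617 CPM, SLC7A2, the arginine carrier CAT2, at 0.572 and 0.544 CPM, and SLC7A9, the light chain of SLC3A1, had 3 counts in 1 parental library and none elsewhere.

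The taurine carrier SLC6A6 and the glycine carrier SLC6A9, or GLYT1, were expressed in both groups and neither passed the test. SLC6A6 was at 74.7, 87.9 and 75.3 CPM in parental and 88.2, 86.7 and 87.6 CPM in trastuzumab libraries, where parental replicate 2 stood with the trastuzumab libraries. Its log2 fold change was 0.14 ± 0.061 (edgeR adjusted p = 0.0665), and without parental replicate 2 it passed as higher, at 0.22 (edgeR adjusted p = 0.00558). SLC6A9 was at 52.2 ± 1.96 and 53.6 ± 0.759 CPM (log2 fold change 0.04, edgeR adjusted p = 0.65), with a corrected value of -0.28 (edgeR adjusted p = 0.000553). Exons of SLC6A6 overlap GRIP2 and those of SLC6A9 overlap CCDC24, both on the opposite strand.

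Of the 4 SLC38 carriers of organelles or of less studied function, 2 rose, none fell and 2 did not pass, a share of 50.0% called, near the 49.3% of all genes. SLC38A10, a member expressed in many tissues, was at 54.6, 54.2 and 59.7 CPM in parental and 79.4, 80.6 and 83.0 CPM in trastuzumab libraries. Its log2 fold change was 0.53 ± 0.056 (edgeR adjusted p = 8.38e-07), with a corrected value of 0.29 (edgeR adjusted p = 0.000105). SLC38A7, a lysosomal exporter of glutamine and asparagine, was at 27.9, 32.2 and 35.2 CPM in parental and 41.9, 39.9 and 39.0 CPM in trastuzumab libraries, with no overlap. It rose by a log2 fold change of 0.34 ± 0.083 (edgeR adjusted p = 0.00251), a call lost after correction (0.13, edgeR adjusted p = 0.181).

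SLC38A9, the arginine-sensing carrier of the lysosome, overlapped between the groups, at 7.26, 7.24 and 5.68 CPM in parental and 6.36, 7.32 and 7.08 CPM in trastuzumab libraries. Its log2 fold change was 0.04 ± 0.14 (edgeR adjusted p = 0.844), and the corrected value of 0.65 passed (edgeR adjusted p = 0.00124). SLC38A6, the remaining member of the class, was at 7.83 ± 0.193 and 6.64 ± 0.339 CPM, lower in every trastuzumab library, and did not pass (log2 fold change -0.24, edgeR adjusted p = 0.136). It passed as lower on log2(FPKM + 1) (-0.17, limma adjusted p = 0.0415) and had a corrected value of 0.09.

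Of the SLC36 members, labelled proton-coupled in the figures, SLC36A4 fell and SLC36A1 did not pass. SLC36A4, or PAT4, was at 12.2, 9.54 and 9.20 CPM in parental and 5.69, 6.01 and 6.17 CPM in trastuzumab libraries, all lower. Its fall was 1.73-fold, a log2 fold change of -0.79 ± 0.14 (edgeR adjusted p = 0.000124), and the corrected value was -0.14 (edgeR adjusted p = 0.399). SLC36A1, or PAT1, was at 58.0 ± 2.92 and 53.4 ± 3.47 CPM (log2 fold change -0.12, edgeR adjusted p = 0.155).

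**Figure D3:**
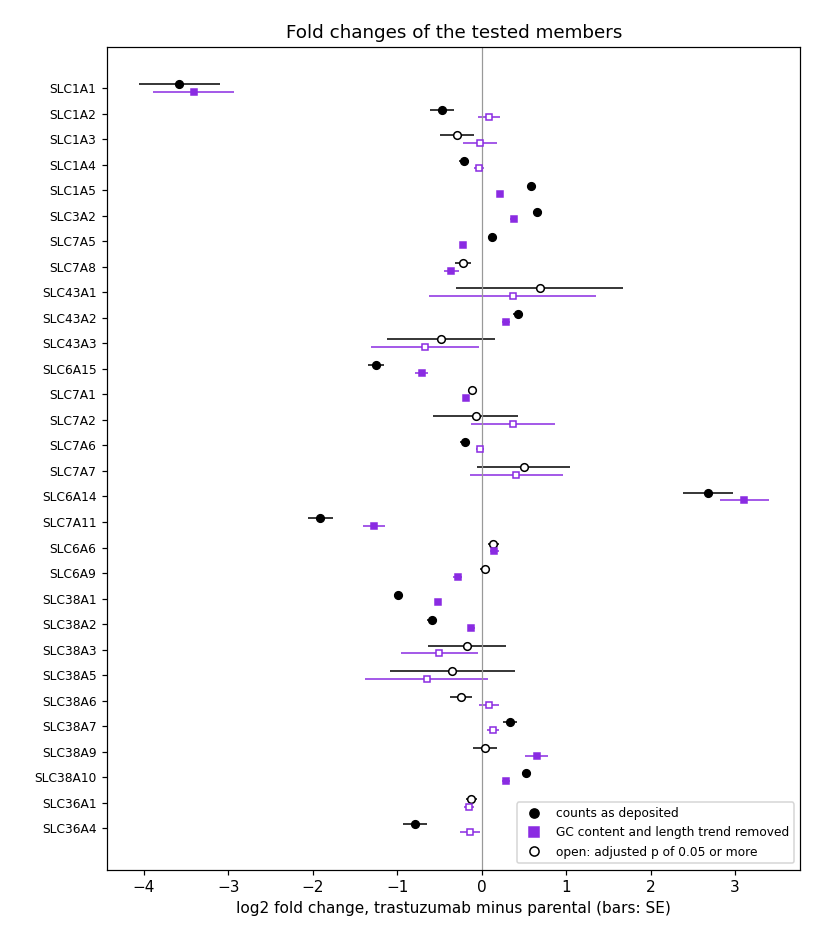
Log2 fold change (trastuzumab minus parental, bars SE) of the 30 tested members from the counts as deposited (circles) and with the trend on GC content and length removed (squares), with open symbols for an adjusted p of 0.05 or more. SLC6A14, SLC1A1, SLC7A11, SLC6A15 and SLC38A1 stayed on their side of 0 in both, while SLC7A5 lay at 0.12 and -0.22.

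Silent members were those below 0.1 CPM in each of the 6 libraries. There were 4: SLC7A10, SLC7A9, SLC3A1 and SLC38A4, each a carrier with a known site in brain, kidney, gut or liver. A further 3, SLC43A1, SLC43A3 and SLC38A5, stayed below 0.5 CPM, and the same 7 genes were those below 0.1 FPKM. No gene was silent in only 1 of the groups by this level, although SLC1A1 in trastuzumab replicates 1 and 2 was below it, at 0.0571 and 0.0991 CPM.

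Per length, RNA of these carriers was concentrated in few genes, and more so under trastuzumab. SLC1A5, SLC7A5 and SLC3A2 made up 75.9% ± 0.966 of the summed FPKM of all 34 members in parental and 84.1% ± 0.583 in trastuzumab libraries. The order of the leading genes in parental cells was SLC7A5, SLC1A5, SLC3A2, SLC38A1 at 42.2 ± 3.18, SLC38A2 at 28.7 ± 2.65 and SLC7A1 at 25.3 FPKM, and the last 2 of these overlapped. Under trastuzumab it was SLC1A5 at 278, SLC7A5 at 222 ± 6.41, SLC3A2 at 177 ± 4.70, SLC7A1 at 22.4, SLC38A1 at 20.3 ± 0.955 and SLC38A2 at 18.1 ± 0.83 FPKM. SLC1A5 thus stood below SLC7A5 in each parental library, at 0.915, 0.855 and 0.942 of its FPKM, and above it in each trastuzumab library, at 1.28, 1.25 and 1.24. Summed over all members, FPKM went from 691 ± 13.1 to 804 ± 12.5, a ratio of 1.16. These shares and sums carry no correction for GC content. The corrected log2 fold changes were 0.22 for SLC1A5, -0.22 for SLC7A5, 0.38 for SLC3A2, -0.52 for SLC38A1 and -0.12 for SLC38A2. How much of the shift follows GC content was not tested.

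Members of higher GC content had higher fold changes, as did other genes. Over the 23 members that averaged 1 CPM or more, the log2 fold change had a Spearman rho of 0.634 with transcript GC content (Pearson r 0.369), beside a rho of 0.625 (Pearson r 0.486) over 11688 protein-coding genes. SLC6A14 reached that level only through the trastuzumab group, and over the 22 members at 1 CPM or more in each group rho was 0.813 (Pearson r 0.793). These points share libraries and are a description only. In the lowest GC quintile, where all protein-coding genes had a median log2 fold change of -0.49, lay SLC7A11, SLC6A15, SLC38A2, SLC36A4, SLC38A6 and SLC38A9, and also SLC6A14, which rose. In the highest, with a median of 0.36, lay SLC1A5, SLC38A10, SLC43A2, SLC7A5 and SLC6A9. SLC7A11, SLC6A15 and SLC38A1 were below, and SLC1A5, SLC3A2 and SLC38A10 above, the median of their quintile. Departures were not limited to these genes. SLC38A9 (0.04) lay above its median of -0.49, and SLC7A8 (-0.22) and SLC7A1 (-0.11) below theirs of 0.23. SLC6A9 (0.04) and SLC7A5 (0.12) lay below the 0.36 of the highest quintile.

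**Figure D4:**
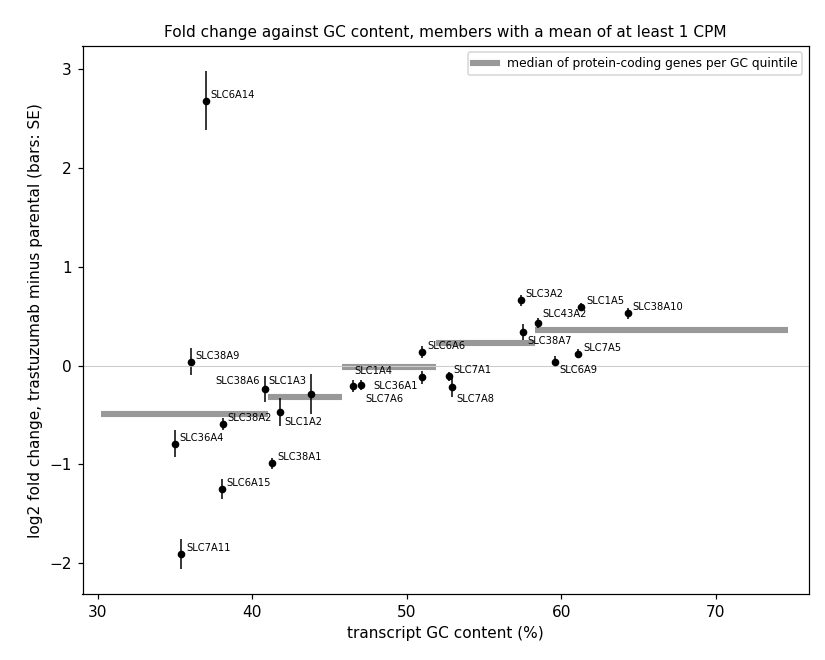
Log2 fold change (bars SE) of the 23 members that averaged 1 CPM or more against transcript GC content in percent, with grey bars at the median of all protein-coding genes in each GC quintile, from -0.49 to 0.36. Most members lay near the bars, with SLC6A14 far above and SLC7A11, SLC6A15 and SLC38A1 below.

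Other genes of amino acid handling, from 8 lists, give the setting of these carriers. Each count can be read beside the 49.3% of all genes called (38.8% after correction), and values in brackets are log2 fold changes as deposited unless a unit is given. Of 20 other carriers of the surface or lysosome, 7 were tested, 3 of them higher and 1 lower (1 and 1 after correction). SLC1A6, the glutamate carrier EAAT4, went up from 0.35 ± 0.115 to 1.27 ± 0.14 CPM (1.86 on the log2 scale, edgeR adjusted p = 0.000656, corrected 1.88) and reached the 1 CPM needed to be named only in the trastuzumab group. The lysosomal cystine exporter CTNS went from 36.4 to 50.6 CPM, a call lost after correction. The lysosomal exporter of cationic amino acids SLC66A1 (0.53) and the aromatic amino acid carrier SLC16A10 (-0.68) were likewise called only without correction. Of 11 mitochondrial carriers, 10 were tested, with 2 higher (the glycine carrier SLC25A38 at 0.42 and the glutamate carrier SLC25A22 at 0.20, but -0.15 after correction) and 2 lower (the serine carrier SFXN1 at -0.51 and the branched-chain amino acid carrier SLC25A44 at -0.20). The call of SLC25A22 was also lost on library totals alone (0.14) and without any 1 of parental replicates 1 and 2 and trastuzumab replicates 1, 2 and 3 (0.13 to 0.21). Without trastuzumab replicates 2 and 3, SLC25A44 (-0.17, edgeR adjusted p = 0.159), SLC25A22 (0.21, edgeR adjusted p = 0.216) and SLC66A1 (0.34, edgeR adjusted p = 0.151) were not called.

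In the amino acid starvation response, which runs from the kinase EIF2AK4 (GCN2) through the factor ATF4 to its targets, 7 of 17 genes rose, 6 fell and 4 missed the threshold. ATF4 RNA fell from 345 ± 4.21 to 255 ± 4.45 CPM (-0.43 ± 0.041 on the log2 scale, edgeR adjusted p = 2.34e-07, corrected -0.78), and the asparagine synthetase ASNS, a classic target, from 77.3 ± 1.60 to 55.8 ± 3.48 CPM (-0.47, corrected -0.40). The serine synthesis enzyme PSAT1 fell (-0.69), while the phosphatase subunit PPP1R15A (1.05), the stress factor NUPR1 (0.64) and the ATF4 partner CEBPB (0.68) rose. Genes of this list thus moved in both directions. EIF2AK4 was at 51.8 and 44.2 CPM, with -0.23 as deposited (edgeR adjusted p = 0.0117) and 0.03 after correction. Its call was also lost without trastuzumab replicate 2 (-0.16) and without trastuzumab replicates 2 and 3 (-0.19, edgeR adjusted p = 0.171).

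In lysosomal sensing of amino acids, 9 of 22 genes rose, 6 fell and 7 missed the threshold (5, 5 and 12 after correction). MTOR, the kinase itself, fell from 125 to 93.0 CPM (-0.43, corrected -0.39), FLCN, which acts on the Rag GTPases, rose (0.56) and its partner FNIP2 fell (-0.80). SESN3, a stress-induced inhibitor of the pathway, fell (-0.74), a call lost after correction, without parental replicate 1 (-0.57) and without trastuzumab replicates 2 and 3 (-0.81, edgeR adjusted p = 0.067). Of 12 glutamine, glutamate and aspartate enzymes, 3 rose and 6 fell (1 and 5 after correction). Glutamine synthetase GLUL went from 1377 to 1086 CPM (-0.34, corrected -0.01 and no longer called). GOT1, the cytosolic aspartate aminotransferase, fell in both fits (-0.40, corrected -0.62), and ASL, the argininosuccinate lyase, rose in both (0.57, corrected 0.21).

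Of the 8 genes of branched-chain amino acid breakdown, 4 rose and 3 fell (1 and 3 after correction). DBT and BCKDHB, subunits of the branched-chain keto acid dehydrogenase, had log2 fold changes of -1.17 and -0.94, with corrected values of -0.62 and -0.62. DLD, its shared subunit, had one of -0.67. The subunits did not all fall. BCKDHA, named after its values were seen, was higher as deposited (0.29, edgeR adjusted p = 0.000222) and not called after correction (-0.09). The mitochondrial aminotransferase BCAT2 went from 59.6 to 79.4 CPM, called only without correction. Of the 5 glutathione synthesis genes, 3 rose and 2 fell (3 and 0 after correction, but not the same 3). GCLM, the modifier subunit of the first step, named after its values were seen, was lower as deposited (-0.28, edgeR adjusted p = 0.000373) and higher after correction (0.16, edgeR adjusted p = 0.0187). GCLC, the catalytic subunit of the first step, went from 69.2 to 52.0 CPM (-0.41, corrected -0.08 and no longer called), while GSS, the second step, rose in both fits (0.43, corrected 0.26) and the glutathione-cleaving GGT7 did too (0.68, corrected 0.29). GGT1, whose near-identical copies make its count uncertain, was higher as deposited (0.43) and not called after correction. Of 8 arginine and polyamine genes, 7 were tested, with 2 higher and 2 lower. The arginase ARG2 rose (0.51), the polyamine enzyme ODC1 fell (-0.39), and the calls of the antizyme OAZ1 (0.34) and of AMD1 (-0.44) were lost after correction.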

How the data were processed

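Directional libraries were made from column-purified total RNA, per the labels' protocols. The authors deposited raw counts per Ensembl gene, whole numbers without normalization, and FPKM values (read counts per unit of gene length and depth, with 2 decimals) for 33686 of the 60612 genes. STAR 2.4.2a and hg38 were used, per the submitters' processing notes. What program counted the reads, with which strand setting and annotation, is not given in the sources used here. Overlapping or antisense genes can therefore share reads that cannot be told apart.

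Counts (71015138 to 82.9 M per library) went into edgeR 4.0.16 (R 4.3.3) with TMM factors, filterByExpr and the robust quasi-likelihood F test, all 6 libraries and no covariate. A gene was called at a Benjamini-Hochberg adjusted p below 0.05 over all tested genes. Fold changes are trastuzumab minus parental. Levels are CPM as mean ± SD (n = 3). Levels of different genes were compared only in FPKM. Within groups, all pairs of libraries differed beyond sampling noise (chi-square per degree of freedom 19.1 to 29.2). The corrected fit used offsets from a spline with 5 degrees of freedom, fitted to GC content and exonic length of GENCODE 29 transcripts. Exon overlaps come from the same annotation.

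The members and lists were chosen with earlier results of these data known. All members are accounted for. From each other list, the up to 4 called genes that changed most, among those of at least 1 CPM, are named, and always ATF4, EIF2AK4, GLUL and ASNS. 1 further gene of that rule is not reported here. Alternatives were DESeq2 1.42.0, limma-voom (limma 3.58.1), limma on log2(FPKM + 1) or log2(FPKM + 0.1) with at least 1 FPKM in 3 libraries or no filter, other scaling factors and filters, a replicate block, and leaving out each library. Leaving out trastuzumab replicates 2 and 3 together was added after seeing the data. The scripts were tested on simulated data.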

Additional observations from a re-analysis of the deposited data

How the results depend on the processing

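On the counts, members higher and lower numbered 7 and 9 with DESeq2, limma-voom, relative log expression factors and a replicate block (8653 genes called, against 8808). They numbered 6 and 12 on library totals alone, 8 and 9 with upper quartile factors, and 5 and 9 of 17 tested on filtered log2(FPKM + 1). Leaving out 1 library gave 6 to 8 higher and 9 to 11 lower, and without trastuzumab replicates 2 and 3 both were 6, where the lone trastuzumab library is assumed to vary like the parental ones. Among genes called in either fit and named by rule, some changed sign on correction for GC content and length. These were SLC1A2 (0.09), SLC7A5 (-0.22), SLC6A9 (-0.28), SLC25A22 (-0.15), AMD1 (0.06), OAZ1 (-0.03) and EIF2AK4 (0.03). Only SLC7A5 among them was called in both fits. SLC38A6 (-0.24 to 0.09) and SLC7A2 (-0.07 to 0.37) changed sign without a call. Of other list genes, seen afterwards, GCLM went from called lower (-0.28) to called higher (0.16) and ASS1 from called higher (0.14) to called lower (-0.21), and further list genes changed sign with a call in at most 1 of the fits. The cause was not tested. Silent members numbered 2 at no more than 3 counts per library, 7 below 0.1 FPKM and 7 below 0.5 CPM. Replicate numbers showed no clear pairing of the libraries. Same-numbered libraries had correlations of 0.24, -0.0167 and 0.0306 over 8947 genes, and differently numbered ones of -0.248 to 0.232. These were taken on deviations from the group means, which constrains them, so they cannot settle whether libraries were paired. Depth limits SLC1A1 under trastuzumab and the members below 0.5 CPM, for which moderate changes were not detectable.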
